A study of Anopheles gambiae with 16 samples.

Results

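Of the 16884 probe sets whose IDs begin with Ag. on the array, 313 (1.85%) were strongly enriched in circulating hemocytes, the blood cells of the malaria mosquito Anopheles gambiae. They were chosen from the measured values themselves. On the scale of log2(intensity + 16), the mean of the 4 hemocyte arrays had to lie at least 2 above both the mean of the 4 head arrays and the mean of the 4 carcass arrays labelled with 2 rounds of amplification, and the lowest hemocyte array had to lie above the highest of those 8, a condition that 13.6% of all Ag. probe sets met on its own. The label is therefore true by construction, and differences between hemocytes and those 8 arrays are given as a description, with no test. All animals were adult females of the G3 strain, 1 to 2 days after eclosion, and the labels list no treatment. The series' design calls all of them naïve, but the collection note on all 4 hemocyte arrays calls the hemocyte donors infected, so hemocytes and an infection in their donors cannot be told apart in any difference given for hemocytes. The groups were circulating hemocytes, heads and carcasses, each amplified in 2 rounds from 80 ng of total RNA, and carcasses amplified in 1 round from 1000 ng, with 4 biological replicates each. A carcass is the body that remains once hemolymph has been drawn and the head cut off, so hemocytes attached to tissue may still be in it. Carcasses were pooled from 20 females and heads from 40, and for hemocytes the source name gives 1000 females and the collection note 500. Hemocytes were lysed in a column kit's buffer and heads and carcasses in Trizol, so tissue and extraction cannot be told apart. For head replicate 4 the title and tissue entry say head and the collection note 40 females, but the source name is that of a carcass pool of 20; it was kept as a head, and without it the rule took 311 probe sets, 309 of them the same.

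Hemocytes patrol the hemolymph of insects. They take up microbes by phagocytosis, take part in melanization, in which phenoloxidase activity covers an invader in melanin, and release factors that act in the hemolymph, among them complement-like proteins that mark malaria parasites for destruction. Mosquito hemocytes are commonly sorted by shape into granulocytes, which engulf particles, oenocytoids, which hold phenoloxidase, and small prohemocytes. Which of these functions the enriched probe sets stand for could not be read here, because no ID could be paired with a gene (0 of 16884 matched a table of 15165 genes). The identity of the hemocyte RNA was for the same reason not checked against marker genes. Probe sets are therefore given by ID. In these IDs the letters after Ag. were read as the chromosome arm, CDS and UTR as the kind of target, and IDs with the same arm and next number as 1 cluster, a reading of the names that no source used here records.

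The enriched probe sets were bright in hemocytes and weak, though mostly detectable, elsewhere. Their median intensity was 949, 1116, 923 and 1076 on hemocyte replicates 1 to 4. It was 122, 101, 78.5 and 78.3 on the heads, and 141, 124, 112 and 131 on the 2-round carcasses. On the 1-round carcasses, which had no part in the rule, it was 104, 92.9, 118 and 87.1. No array outside the hemocytes came near the lowest hemocyte median, which for heads and 2-round carcasses largely follows from the rule. Control probe sets for RNA integrity separated hemocytes from the other tissues too, with an actin 3' over 5' intensity ratio of 11.8 to 14.6 in hemocytes, 17.5 to 25.6 in heads and 22.3 to 29.4 in 2-round carcasses. The 3' over middle ratio of actin was 2.06 to 2.33, 3.13 to 4.03 and 3.17 to 3.46 in that order, while the Gapdh 3' over 5' ratio overlapped between hemocytes (36.4 to 59.5) and both others. The Gapdh 3' over middle ratio was 1.47 to 2.22 in hemocytes, below the heads (2.70 to 5.64) and overlapping the 2-round carcasses (1.31 to 1.57). The part of these ratios in the hemocyte differences was not tested. Over all probe sets above background on at least 4 arrays (13061, called bright here), the array medians lay between 30.5 and 44.1 in all 4 groups. They were not even within the 1-round carcasses, at 30.5, 30.5, 42.7 and 30.6 on replicates 1 to 4.

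Enrichment ranged widely. Taken against whichever of heads and 2-round carcasses lay nearer, 236 members were 4-fold to 8-fold higher in hemocytes, 59 were 8-fold to 16-fold higher and 18 at least 16-fold, with a median log2 difference of 2.47. These folds are on the log2(intensity + 16) scale, which understates the change of dim probe sets. The median difference was 3.02 against heads and 2.55 against 2-round carcasses. The gap between the lowest hemocyte array and the highest head or carcass array was at least 1 on the log2 scale for 271 members, with a median of 1.59. At the threshold, the 3 members just inside had smaller differences of 2.002, 2.007 and 2.008 and the 3 probe sets just outside had 1.999, 1.992 and 1.989. Another 5 probe sets met both means but overlapped between arrays.

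The largest enrichment was that of Ag.2R.1112.0_CDS_at. Its intensity was 3004, 2151, 4296 and 4989.5 on the 4 hemocyte arrays, 82.1, 58.0, 22.9 and 28.2 on the heads and 84.5, 52.9, 35.2 and 54.8 on the 2-round carcasses. Its 1-round carcass values were 68.9, 25.9, 21.8 and 44.6. The lowest hemocyte array was far above every other array, while heads and both carcass groups overlapped. The log2 difference was 5.86 ± 0.34 (SE) against heads and 5.61 ± 0.34 against 2-round carcasses.

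Ag.2R.2035.0_CDS_at came next, with 1074, 742, 2812 and 2813 on the hemocyte arrays. It was near background in heads, at 32.5, 3.80, 5.04 and 19.3 (2 of 4 arrays above background), and low in 2-round carcasses, at 15.1, 14.0, 25.2 and 21.6. Hemocyte replicates 1 and 2 were lower than 3 and 4 for both of these probe sets. Its log2 difference was 5.79 ± 0.42 against heads and 5.53 ± 0.42 against 2-round carcasses. Background was set on each array at the 95th percentile of the 4502 probe sets whose IDs begin with Pf., read as probe sets of the malaria parasite. It lay between 12.51 and 15.28 intensity units on the 2-round arrays and between 8.83 and 10.02 on the 1-round arrays.

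Few members were absent outside hemocytes. All 313 were above background on all 4 hemocyte arrays, and through these arrays all passed the filter for bright probe sets. In heads 258 were above background on all 4 arrays, beside 50.4% of all Ag. probe sets, and 11 on none. In 2-round carcasses 272 were above it on all 4, beside 48.7% of all Ag. probe sets, and 12 on none. Both shares count Ag. probe sets that were not bright, and the shares of bright probe sets were not computed. Above background on all 8 of these arrays were 252 members. Another 54 were above it on 1 to 7 of the 8, and 7 on none. Those 7 were among the dim members, with hemocyte means of 67.7 to 192 and 1-round carcass means of 1.83 to 43.7. On the 1-round arrays, where background was lower, 2 of them were below it on every array too. In bulk RNA, fewer cells of a type and less RNA per cell cannot be told apart, in heads and carcasses as in any other sample here.

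The members varied somewhat more between arrays of 1 group than bright probe sets did, in a comparison not matched for intensity. Member medians lay above those of bright probe sets on every array, and the scale compresses the spread of dim probe sets. The median SD over 4 arrays was 0.35 on the log2 scale in hemocytes against 0.30 for all bright probe sets, 0.44 against 0.31 in heads, 0.36 against 0.29 in 2-round carcasses and 0.40 against 0.31 in 1-round carcasses. An SD over 1 was seen for 8 members in hemocytes (2.56%, against 0.827% of bright probe sets), 29 in heads (9.27%, 1.75%), 15 in 2-round carcasses (4.79%, 0.942%) and 13 in 1-round carcasses (4.15%, 0.934%). Among heads, replicate 1 held the highest value of 176 members (56.2%, against 33.4% of bright probe sets) and the lowest of 59. The median member lay 0.27 above its head mean on replicate 1, where the median bright probe set lay 0.04 above. Among hemocytes, replicate 2 was the highest for 143 members (45.7%, against 35.3% of bright probe sets) and the lowest for 77, while replicate 4 was the highest for 112 (35.8%, against 32.2%) and replicate 1 for 17 (5.43%, against 16.03%). Members for which hemocyte replicate 2 was the lowest had a median smaller difference of 2.95, and those for which it was the highest 2.35. No test was made of these array patterns.

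Many members peaked on the same-numbered carcass array in both labellings. The highest 2-round and the highest 1-round carcass array carried the same replicate number for 158 members (50.5%, against 31.0% of bright probe sets). Of these, 72 were highest on replicate 3 in both and 53 on replicate 1 in both. On its own, 1-round replicate 3 was the highest of its group for 174 members (55.6%, against 60.9% of bright probe sets). Between 2-round carcasses and heads the number was the same for 93 members (29.7%, against 24.2%), and between 2-round carcasses and hemocytes for 78 (24.9%, against 26.1%). Carcass arrays of the same number deviated together across all bright probe sets as well, so the carcass groups are paired by number.

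Heads and carcasses were then compared, an order that the rule does not fix although it caps both. Most members were lower in heads than in 2-round carcasses: 230 of 313 (73.5%) had a difference below 0, against 43.4% of bright probe sets, and the median difference was -0.32 against 0.08 on the log2 scale. At an adjusted p under 0.05 and at least 2-fold (limma across all Ag. probe sets, Benjamini-Hochberg), 23 members were called lower in heads, 7.35%, beside 4.67% of all Ag. probe sets and 6.03% of bright ones. Called higher in heads were 2 members, 0.639%, beside 5.02% of all and 6.47% of bright probe sets. The other 288 did not pass. With no overlap between the arrays, 37 members lay lower in heads, beside 8.56% of all Ag. probe sets, and 5 higher, beside 13.2%. The median stayed below 0, at -0.18 to -0.41, in the alternatives computed. The number called lower rested on single arrays. Without head replicate 1 it was 47, 15.02% beside 4.9% of all Ag. probe sets. It was 14 (4.47%, beside 4.3%) without head replicate 3, 15 (4.79%, beside 4.35%) without head replicate 4, the array with the conflicting entry, and 14 (4.47%, beside 4.52%) without carcass 2-round replicate 1. With a pseudocount of 64 it was 8 (2.56%, beside 2.94%). In these last 4 settings the share of members called lower was close to that of all probe sets, so the count called is no result about the members. The median without head replicate 4 was -0.27. The number called higher was 4 without carcass 2-round replicate 4. Of the control ratios for RNA integrity, only the 3' over middle intensity ratio of Gapdh, a glycolytic enzyme, separated these tissues. It was 2.70 to 5.64 in heads and 1.31 to 1.57 in 2-round carcasses. The Gapdh 3' over 5' ratio overlapped, at 37.5 to 102 in heads and 27.3 to 41.2 in 2-round carcasses. Both actin ratios, given above, overlapped too. Their part in the result was not tested.

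The largest fall in heads among the members was at Ag.2L.342.0_CDS_at. It measured 41.9, 182, 143 and 139 on the heads against 1230.3, 668, 1112 and 724 on the 2-round carcasses, with no overlap. The log2 difference was -2.82 ± 0.42 (SE, limma adjusted p = 0.00011). Its 1-round carcasses measured 798, 411, 1077 and 439, and its hemocytes 2733, 7085, 4775 and 2683.

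Ag.3L.24.0_CDS_at, on arm 3L, measured 64.2, 527, 326 and 482 on the heads against 2843, 858, 1647 and 1982 on the 2-round carcasses. No array overlapped, although head replicate 1 lay well below the other heads. The difference was -2.53 ± 0.56 (limma adjusted p = 0.0037), and -1.91 without head replicate 1. Hemocytes measured 8097, 14183, 10232 and 5348 and 1-round carcasses 1816, 478, 1252 and 941. In both of these probe sets hemocyte replicate 2 was the highest and head replicate 1 the lowest of its group. The 23 members called lower in heads had median intensities of 127.5 in heads, 302 in 2-round and 279 in 1-round carcasses.

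The 2 members called higher in heads were both on arm 2R. Ag.2R.4074.0_at measured 344, 407, 464 and 319.6 on the heads against 131, 172, 108 and 199 on the 2-round carcasses (difference 1.26 ± 0.20, limma adjusted p = 0.00022). Its hemocytes measured 1715, 1549.6, 2270.0 and 2629. Ag.2R.654.0_UTR_at was even across replicates, at 422, 385, 383 and 415 on the heads and 183, 167, 189.6 and 181 on the 2-round carcasses (difference 1.09 ± 0.16, limma adjusted p = 8.7e-05, below 2-fold at 0.93 with a pseudocount of 64). Neither overlapped between heads and carcasses. Their hemocyte means, 2041 ± 499 and 1775 ± 300.3 (SD, n = 4), were more than 4-fold above those of heads, as the rule requires.

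The 1-round carcass arrays had no part in the rule, but they deviated together with the same-numbered 2-round carcass arrays that the rule required to be low. Against hemocytes, tissue and rounds of amplification change together. Against the 1-round arrays, 282 members (90.1%) had a hemocyte mean at least 2 higher on the log2 scale with no overlap between the arrays, beside 6.44% of all Ag. probe sets. The arrays did not overlap for 306 members, beside 27.3% of all and 32.8% of bright ones. By limma's call 308 were higher in hemocytes and 0 lower, beside 18.8% and 9.0% of all probe sets and 24.2% and 11.6% of bright ones. These counts share the hemocyte arrays with the rule, and their carcass arrays are paired with arrays of the rule, so they are a description and no independent check. The median difference was 2.98, with a range of 0.51 to 6.26. The largest, at Ag.UNKN.1005.1_at, rested on hemocyte values of 5643, 3799, 8135 and 8233 against 1-round values of 104, 51.3, 61.1 and 50.5. Its ID names no arm, and in hemocytes it was again lower on replicates 1 and 2.

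The 31 members less than 2 above the 1-round carcasses were 27 CDS, 4 unmarked and 0 UTR probe sets. Among all members these kinds made up 84.3%, 10.2% and 5.43%. The medians of the 31 were 374 in hemocytes, 57.4 in heads, 68.4 in 2-round and 112.4 in 1-round carcasses. Of these, 5 were not called higher than 1-round carcasses (differences of 0.51 to 1.36) and 7 overlapped them. The smallest difference was at Ag.3L.36.2_a_at, which measured 239, 249, 208 and 204 in hemocytes and 193, 101, 255 and 106.5 in 1-round carcasses. The 2-round carcasses stood clearly below, at 39.3, 32.6, 48.0 and 30.9, a 2-round minus 1-round difference of -1.66 ± 0.37 (limma adjusted p = 0.0038). The rule required these 2-round arrays to be low and left the 1-round arrays free. The direction was therefore favoured by the choice of members, and the p-value is no support for it. Against heads and 2-round carcasses this probe set met the rule, while the difference from 1-round carcasses was 0.51 ± 0.37 (limma adjusted p = 0.31).

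Between the 2 carcass labellings the shares of members called lay near those of bright probe sets on the values as deposited. The member median was 0.29 higher after 2 rounds, against 0.19 for bright probe sets. Called higher after 2 rounds were 32 members, 10.2%, beside 7.29% of all and 9.42% of bright probe sets, and called lower were 11, 3.51%, beside 2.61% and 3.37%. With quantile normalization the member median was -0.01, 9 were called higher (2.88%, beside 3.42% of all Ag. probe sets) and 26 lower (8.31%, beside 5.02%), so the direction for the members as a whole depended on scaling. Centring each array on its median moved the median of all probe sets from 0.12 to 0 and the counts to 26 higher (8.31%, beside 5.55%) and 16 lower (5.11%, beside 3.46%). The number lower was 7 (2.24%) without carcass 1-round replicate 1, beside 2.74% of all, and 7 without replicate 3, beside 2.03%. The rule caps the 2-round level and leaves the 1-round level free, which favours falls after 2 rounds among the members. For actin, the control ratio of 3' to 5' intensity lay at 22.3 to 29.4 after 2 rounds and 2.22 to 2.93 after 1, and for Gapdh at 27.3 to 41.2 and 1.41 to 1.93. Their part in these calls was not tested.

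The largest rise after 2 rounds was at Ag.3R.2990.0_at, at 1070.3, 607, 821 and 818 against 133, 93.0, 188 and 138 after 1 round (difference 2.46 ± 0.27, limma adjusted p = 1.2e-05). With hemocyte values of 8012, 9361, 9904 and 12715 it was 3.57 above 2-round and 6.04 above 1-round carcasses. Ag.2R.1206.0_CDS_at measured 315, 382, 330 and 574 after 2 rounds and 42.1, 52.5, 69.6 and 81.9 after 1 (difference 2.41 ± 0.23, limma adjusted p = 3.3e-06). Its hemocyte arrays lay at 1531, 2238, 2051 and 2197. The largest fall was at Ag.2R.1328.0_CDS_at, at 38.7, 32.2, 7.25 and 30.7 after 2 rounds and 244, 109, 110.4 and 139 after 1 (difference -1.95 ± 0.33, limma adjusted p = 0.00049). Its hemocyte values of 669, 535, 975 and 931 lay above both carcass groups.

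Members came from every arm in the IDs. Arm 2R held 96 (30.7% of members, 27.7% of bright probe sets), 2L 65 (20.8%, 21.1%), 3R 59 (18.8%, 19.5%), 3L 53 (16.9%, 15.3%) and X 29 (9.27%, 8.28%). Probe sets with no arm (UNKN) gave 11 members, 3.51% against 8.15% of bright probe sets, and these had the highest median smaller difference of the groups, 3.38. The head minus carcass median was -0.48 for members on 3L, -0.35 on 2L, -0.34 on 2R, -0.32 on 3R, -0.06 on X and 0.11 on UNKN. The differences between arms were not tested. By target, 264 members were CDS (84.3%, against 80.2% of bright probe sets), 17 UTR (5.43%, 5.93%) and 32 unmarked (10.2%, 13.9%). After 2 rounds against 1 the medians of UTR and unmarked members were 0.74 and 0.53, and that of CDS members 0.25, beside 0.55, 0.41 and 0.15 for bright probe sets of the same kinds. Called higher after 2 rounds were 5 of 17 UTR (29.4%), 9 of 32 unmarked (28.1%) and 18 of 264 CDS members (6.82%), beside 23.7%, 22.4% and 6.12% of bright probe sets of these kinds.

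The 313 members fell into 291 ID clusters. In 236 the member was the only probe set of its cluster. The other 55 clusters held more than 1 probe set, and in 14 of them all were members. Clusters with 2 members numbered 18 and those with 3 members 2, so 42 members may not be separate transcripts. Within these 20 clusters the smaller difference varied between members by a median of 0.40 on the log2 scale, and by up to 1.54. One cluster of 3 on arm 3R spanned 3.14 to 4.67, and one on 3L spanned 3.61 to 4.24. The other 45 probe sets in 41 of the clusters were not taken by the rule. Of these partners 25 (55.6%) were still called higher in hemocytes than in both heads and 2-round carcasses, and 0 were called lower than both. Among all Ag. probe sets, the 313 members included, 8.03% were called higher in hemocytes than in both. The partners' clusters were picked through members that the rule took on these same arrays, so these counts are a description and no support. The hemocyte mean was above both others for 36 partners and below both for 4. No share of all Ag. probe sets was computed for these counts, nor for calls lower than both, so they are no result about the partners. Partners' smaller differences had a median of 1.11 and ran from -2.16 to 1.96, a range that the rule caps near 2. The call held for 8 of 12 UTR, 13 of 22 CDS and 4 of 11 unmarked partners, with no share computed for all probe sets of these kinds. Of the partners, 4 were below background on all 4 hemocyte arrays and 2 on all 16 arrays.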

How the data were processed

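Each of 16 one-colour arrays held the labelled product amplified from the total RNA of 1 biological replicate, 4 per group. The authors deposited a linear intensity for each of 22761 probe sets on every array. Per the submitters' processing notes GCOS 1.4 was used. How probes were summarised, background removed and arrays scaled is not stated by any source read. The deposited intensities were used without further normalization. The number of arrays limits the precision.

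Values were analysed as log2(intensity + 16). With limma 3.58.1 in R 4.3.3, lmFit and eBayes were run on every Ag. probe set (16884) with group as the only factor, leaving 12 residual degrees of freedom, and p-values were adjusted by Benjamini-Hochberg within each comparison. The procedure was tested on simulated data. A call required both an adjusted p under 0.05 and 2-fold. A bright probe set was above background on at least 4 arrays. The probe sets named are the 2 members with the largest enrichment over the nearer tissue and, in each other comparison, at most 2 called members per direction; Ag.3R.2990.0_at was named in 2 comparisons. Members, lists and tests were chosen with earlier results of these data known. Gene lists of immune factors and cell type markers were not used, because no ID could be paired with a gene.

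Replicate numbers were checked as pairs over bright probe sets. Between the carcass groups, same-numbered arrays correlated in their deviations from the group mean at 0.24 to 0.54 and other numbers at 0.02 or less, so the carcass arrays were taken as pairs; no other groups were. The values printed come from the fit without the pairs, and fits with them are given as alternatives.

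Alternatives were pseudocounts of 1 and 64, quantile normalization, median centring, the replicate block over all groups, the block on the carcass pairs only (chosen after seeing the data), bright probe sets only, other thresholds for membership, and leaving out each array.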

Additional observations from a re-analysis of the deposited data

How the results depend on the processing

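The rule took 442 probe sets with a pseudocount of 1, 202 with 64, 230 with quantile normalization and 364 with median centring; it took 77 when the difference had to be at least 3 and 1303 when at least 1. Leaving out 1 array at a time gave 292 to 345, with at least 276 of the 313 retained. Members called lower in heads than in 2-round carcasses (23) numbered 8 with a pseudocount of 64 and 14 to 47 without 1 array, with the shares given above. Those called higher (2) numbered 1 with a pseudocount of 64 (0.32%, beside 2.76% of all Ag. probe sets). Without 1 array they numbered 2 to 4, the 4 being 1.28% beside 5.36%. Members called higher after 2 rounds than after 1 (32) numbered 15 with a pseudocount of 64 (4.79%, beside 3.59% of all Ag. probe sets). They numbered 9 with quantile normalization (2.88%, beside 3.42%). Without 1 array they ran from 27 (8.63%, beside 6.78%) to 44, the latter without 1-round replicate 3 (14.06%, beside 9.54%). Those called lower (11) numbered 3 (0.96%, beside 1.09%), 26 (8.31%, beside 5.02%) and 7 to 14 in the same settings. The 14 were 4.47% beside 2.84%. Members called higher in hemocytes than in 1-round carcasses (308) stayed at 296 to 309 in the alternatives run, beside 12.6% to 25.2% of probe sets tested. With the replicate number as a block over all groups, paired or not, 25 members were called lower in heads (7.99%, beside 4.75% of all Ag. probe sets). Called higher in heads were 2 (0.639%, beside 5.03%). After 2 rounds 33 were called higher (10.54%, beside 7.33%) and 9 lower (2.88%, beside 2.65%). In hemocytes 308 were called higher than in 1-round carcasses (98.4%, beside 18.8%). The block on the carcass pairs alone, an alternative chosen after seeing the data, gave these counts in the same order. They were 28 (8.95%, beside 4.8%), 2 (0.639%, beside 5.02%), 35 (11.18%, beside 7.4%), 10 (3.2%, beside 2.65%) and 308 (98.4%, beside 18.8%). No count moved by more than 1.5 times under either block. The causes were not tested. Probe sets near background (8.83 to 15.28) and the number of arrays limit what can be seen of the dimmest members.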
